A study of Homo sapiens with 6 samples.

Results

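The histone genes of a human neuroblastoma line were compared between cells depleted of PCIF1 and control cells. Members were all protein-coding genes of the authors' deposited table whose GENCODE 29 symbol starts with HIST1H to HIST4H, H1F, H2AF, H2BF or H3F, chosen by name and not by any measured value. There were 72 such genes among the 13885 genes of the table, 61 with a HIST symbol, here called clustered, and 11 with another, here called variant. The split follows the symbol and not the position or the protein. GENCODE 29 holds 91 genes that meet the rule, and the other 19, 10 clustered and 9 variant, had no row in the table.

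The cells were BE(2)-C, a neuroblastoma line with amplified MYCN, wild type by its label. In the first group 3 samples had received 1 siRNA against PCIF1 (siPcif1 in the labels, siPCIF1 here), and in the second group 3 had received a scrambled siRNA (siScram in the labels, siScramble here), for 24 h in each case. All 6 samples then stayed in 10 µM all-trans retinoic acid (ATRA), which drives these cells toward a neuronal form, for 4 days, so that no sample without ATRA stands in the comparison. Libraries were made from poly(A)+ RNA by a stranded method. PCIF1 methylates the adenosine next to the mRNA cap to m6Am. Nothing in the labels tells whether a group's 3 samples stem from separate cultures, and p-values then cover the spread among these samples alone, which may be technical. The table gives 1 comparison over the 6 samples and no value per sample, so each change is printed with the SE of the authors' fit.

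Histones package DNA. A pair each of H2A, H2B, H3 and H4 forms the nucleosome core, and H1 binds the linker between cores. Clustered histone genes are copied mainly in S phase, mostly have no introns, and give mRNAs that usually end in a stem-loop in place of a poly(A) tail. The stem-loop is bound by SLBP and the end is cut with the help of the U7 snRNP. Several clustered genes can also give longer, polyadenylated mRNAs, mostly in cells that leave the cycle. Variant genes such as H2AFZ and H3F3A are expressed throughout the cycle, give polyadenylated mRNAs, and encode histones that replace the S phase forms. In neuroblastoma lines retinoic acid slows division as the cells differentiate.

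The stem-loop was searched for in the annotated transcripts of every member. It marks the usual end of these mRNAs, while a poly(A) selection is meant to keep the tailed one. RNAs without a long tail were counted too, as given below. The hairpin with a stem of 6 and a loop of 4 bases that the most clustered genes hold was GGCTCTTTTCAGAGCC, and it was searched on the sense strand after the stop codon with up to 2 mismatches. It was found in 28 of the 61 clustered genes and in 0 of the 11 variants, against 0.256% of 11718 other protein-coding genes searched over the whole main transcript. In 26 of the other clustered genes the annotated model ends at the stop codon, so that no sequence was there to search. The match was exact in 17 genes, had 1 mismatch in 6 and 2 in 5, and began 22 to 67 bases after the stop codon. Examples follow from GENCODE 29 on GRCh38, written as DNA with the stem-loop in capitals, first from genes that fell, then from HIST1H3E, which rose, and from HIST1H4H, an H4 gene that did not pass the test.
HIST3H2BB (chr1:228458538-228458553, + strand): cccaaaGGCTCTTTTCAGAGCCacccac
HIST1H2AC (chr6:26124669-26124684, + strand): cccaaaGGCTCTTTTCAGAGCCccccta
HIST1H2BC (chr6:26123472-26123487, - strand): cccaaaGGCTCTTTTAAGAGCCacccag
HIST1H2BD (chr6:26158587-26158602, + strand): cccaaaGGCTCTTTTAAGAGCCacgcat
HIST1H3E (chr6:26225596-26225611, + strand): tccaaaGGCTCTTCTCAGAGCCaaccac
HIST1H4H (chr6:26285131-26285146, - strand): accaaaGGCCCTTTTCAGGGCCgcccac
Counted from 1 at the first base of the stem-loop, HIST1H2BC and HIST1H2BD carry C10A in the loop and HIST1H3E carries T8C. All 5 H4 genes with a match carry T4C together with A13G, a change of both partners of 1 stem pair. In the same models 1917 annotated bases follow the stem-loop of HIST3H2BB, 1128 that of HIST1H2AC, 116 that of HIST1H2BC, 39 that of HIST1H2BD, 1862 that of HIST1H3E and 1655 that of HIST1H4H. Of the 28 genes with a match 8 (28.6%) fell and 1 rose, and of the 33 clustered genes with none found 11 (33.3%) fell and 1 rose, per the authors' deposited table, against 17.7% lower and 16.3% higher over all genes.

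Some values of the whole table bear on all that follows. PCIF1 was at -0.82 (SE 0.19; DESeq2 adjusted p = 0.000167) per the authors' deposited table, and the direction of every change, siPCIF1 over siScramble, was read from that sign, because the header does not give it. The name of the table puts siScramble first, and read that way every sign would turn. Mean normalised counts per the authors' deposited table summed to 1.41e+07 over genes; the depth of each library is unknown. RNAs without a long poly(A) tail were among the most counted: the mitochondrial ribosomal RNA MT-RNR2 took 34.0% of that sum and the signal recognition particle RNA RN7SL2 11.6% per the authors' deposited table. Clustered histone genes had a median of 2984 normalised counts per kilobase of their models, against 55.6 over 13877 genes with a length. Whether tailed or untailed histone mRNA was counted was not tested. All 12 adrenergic neuroblastoma markers listed were measured. Of 11 markers of blood, endothelial, epithelial, Schwann and stromal cells 4 had a row, of which 1 fell, per the authors' deposited table, and PTPRC, HBB and PECAM1 were among those with none.

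Clustered histone genes were more often lower than higher with siPCIF1. Of the 61, 19 fell, 2 rose and 40 did not pass a DESeq2 adjusted p of 0.05 per the authors' deposited table. Over all 13885 genes, 17.7% were called lower and 16.3% higher by the same rule. The median log2 fold change of the clustered genes was -0.27 per the authors' deposited table, against 0.0059 for all genes. The genes that fell stood at 54.0% to 75.7% of the siScramble level. Clustered histone genes are also strongly counted, and strongly counted genes were lower more often. Among the 1375 genes with a mean of at least 1000, 31.8% were lower and 14.5% higher per the authors' deposited table, while of the 47 clustered genes at that level 38.3% were lower and 0 higher. The minimum of 1000 was chosen after the values were seen. Once the trend of all genes with GC content, length and level was subtracted, 3 clustered genes were lower and 10 higher, as described further on. In the plot of level against change, the clustered genes lie at the right, with 49 of the 61 under the line at 0.

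**Figure D1:**
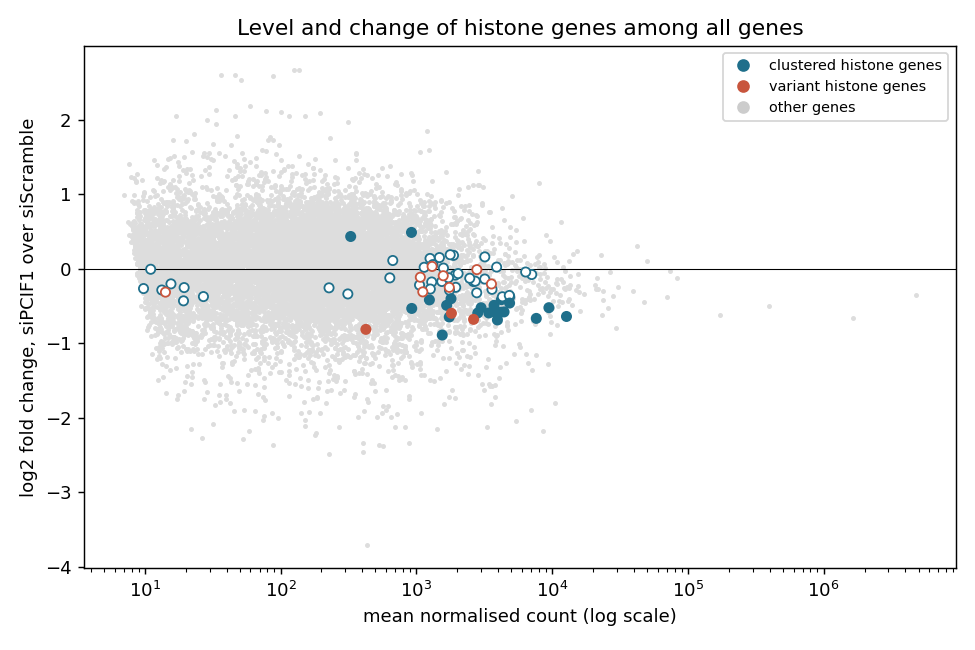
Mean normalised count (log scale) against log2 fold change, siPCIF1 over siScramble, for every gene of the table. Clustered histone genes are blue, variants red and other genes grey; filled histone points passed an adjusted p of 0.05. The 19 clustered genes that fell have means between 925 and 12765, while 7 clustered genes with means under 50 lie apart at the left.

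By type, the counts of called genes stand against 17.7% lower and 16.3% higher over all genes, or 31.8% and 14.5% over genes with a mean of at least 1000. Of the 14 clustered H2A genes 7 fell and 0 rose, and of the 17 H2B genes 7 fell and 1 rose, per the authors' deposited table. Of the 12 H3 genes 2 fell and 1 rose, of the 13 H4 genes 1 fell and 0 rose, and of the 5 H1 genes 2 fell and 0 rose per the authors' deposited table. The shares lower were 50% for H2A, 41.2% for H2B and 40% for H1, and at or under the share over all genes for H3, at 16.7%, and H4, at 7.69%. Whether these shares differ was not tested, since genes are not replicates. The medians from the authors' deposited table were -0.20 for H1, -0.39 for H2A, -0.25 for H2B, -0.25 for H3 and -0.25 for H4. The H4 genes ranged between -0.46 and 0.06 and the H2B genes between -0.89 and 0.49, per the authors' deposited table.

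**Figure D2:**
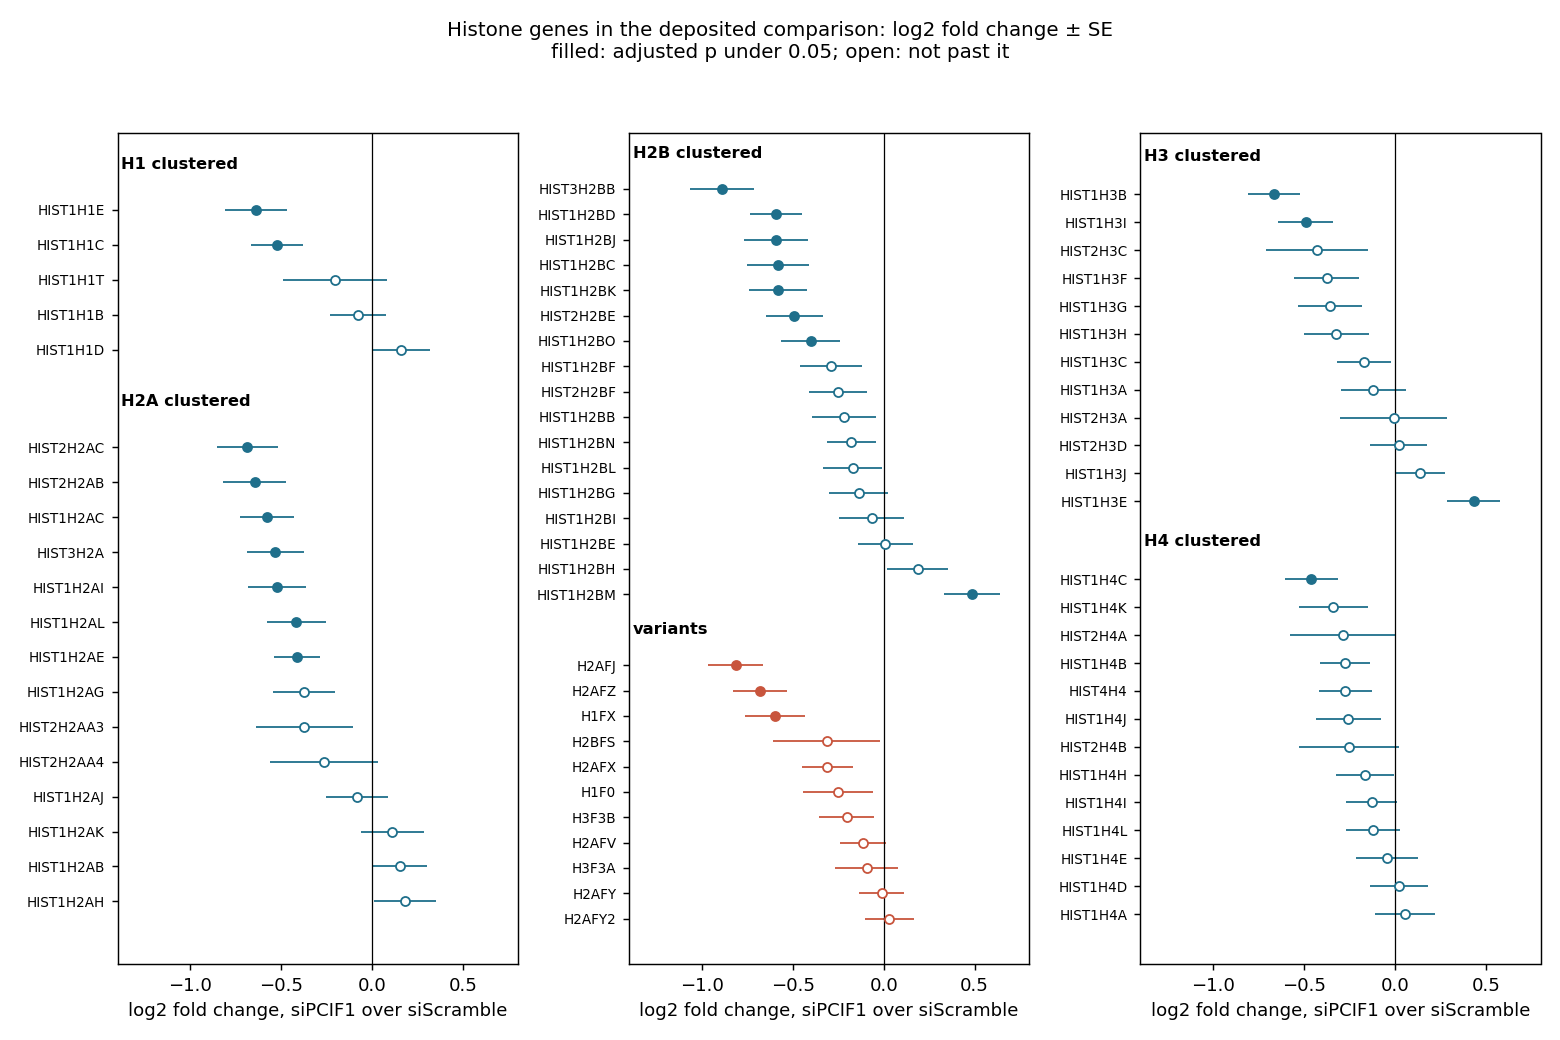
Log2 fold change with its SE, siPCIF1 over siScramble, for each of the 72 histone genes, by type and sorted from the lowest. Filled points passed an adjusted p of 0.05 per the authors' deposited table; HIST3H2BB at -0.89 is the lowest and HIST1H2BM at 0.49 the highest.

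The H1 genes include the most counted members. HIST1H1E, which encodes linker histone H1.4, had a mean normalised count of 12765 and fell by 0.64 (SE 0.17; DESeq2 adjusted p = 0.00114) on the log2 scale per the authors' deposited table. HIST1H1C, for H1.2, had a mean of 9474 and fell by 0.52 (SE 0.14; DESeq2 adjusted p = 0.00151) per the authors' deposited table. The linker genes HIST1H1B, for H1.5, and HIST1H1D, for H1.3, were at -0.08 (SE 0.15; DESeq2 adjusted p = 0.738) and 0.16 (SE 0.16; DESeq2 adjusted p = 0.468) per the authors' deposited table. HIST1H1B was the clustered gene with the highest mean, 7081, among those that did not pass. HIST1H1T, the testis linker histone gene, had a mean of 15.6 and a change of -0.20 (SE 0.29) per the authors' deposited table. HIST1H1E and HIST1H1C stood at 64.2% (95% interval from the SE 50.9 to 80.9%) and 69.6% (57.4 to 84.5%) of the siScramble level.

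Among H2A genes, HIST2H2AC on chromosome 1 had the largest decrease, at -0.69 (SE 0.17; DESeq2 adjusted p = 0.000313) per the authors' deposited table. Its neighbour HIST2H2AB was at -0.65 (SE 0.18; DESeq2 adjusted p = 0.00142) per the authors' deposited table. HIST1H2AC, a gene known for a polyadenylated form, was at -0.58 (SE 0.15; DESeq2 adjusted p = 0.000596) per the authors' deposited table. HIST3H2A, HIST1H2AI, HIST1H2AL and HIST1H2AE fell by 0.53, 0.52, 0.42 and 0.41 on the log2 scale per the authors' deposited table. Only 37.7% of the 50-base words of HIST1H2AI are found nowhere else, so its value is uncertain. HIST1H2AG, with a mean of 4876, was at -0.38 (SE 0.17) per the authors' deposited table and missed the threshold at a DESeq2 adjusted p of 0.0727. HIST1H2AH, HIST1H2AB and HIST1H2AK were on the other side of 0, at 0.18, 0.15 and 0.11 per the authors' deposited table, and missed the threshold. The gene BOLA1 overlaps HIST2H2AB, so reads of the 2 may be mixed.

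H2B genes held both ends of the range. HIST3H2BB (ENSG00000196890.4) had the largest decrease of all 72 genes, at -0.89 (SE 0.17) or 54.0% of the siScramble level (95% interval 42.6 to 68.4%), with a DESeq2 adjusted p of 5.19e-06 per the authors' deposited table. HIST1H2BD was at -0.59 (SE 0.14; DESeq2 adjusted p = 0.00031) per the authors' deposited table. HIST1H2BK was at -0.58 (SE 0.16; DESeq2 adjusted p = 0.00158) and HIST1H2BC at -0.58 (SE 0.17; DESeq2 adjusted p = 0.0037) per the authors' deposited table. HIST1H2BJ, HIST2H2BE and HIST1H2BO were at -0.59, -0.49 and -0.40 per the authors' deposited table, all called lower. HIST1H2BK shares most of its model with other genes, with 25.9% of its 50-base words found nowhere else, so its value is uncertain. HIST1H2BM (ENSG00000273703.1) rose by 0.49 (SE 0.15; DESeq2 adjusted p = 0.00745) per the authors' deposited table, to 140% of the siScramble level (95% interval 114 to 173%). All of its 50-base words are its own and it overlaps no other annotated gene. The other 9 H2B genes lay between -0.29 and 0.19 per the authors' deposited table.

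HIST1H3B and HIST1H3I were the H3 genes that fell. HIST1H3B had the most reads per length of any histone gene, with a mean of 18613 normalised counts per kilobase of its model, which ends at the stop codon, and fell by 0.67 (SE 0.14; DESeq2 adjusted p = 3.5e-05) per the authors' deposited table. HIST1H3I was at -0.49 (SE 0.15) per the authors' deposited table. HIST1H3E, with a mean of 329, rose by 0.43 (SE 0.15; DESeq2 adjusted p = 0.0124) per the authors' deposited table. HIST1H3F and HIST1H3G, with means of 4304 and 4842, were at -0.38 and -0.36 per the authors' deposited table and missed the threshold. HIST1H4C was the H4 gene that fell, at -0.46 (SE 0.14; DESeq2 adjusted p = 0.00682) per the authors' deposited table. HIST1H4E, the most counted H4 gene with a mean of 6389, was at -0.04 (SE 0.17; DESeq2 adjusted p = 0.871) per the authors' deposited table.

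Summed over genes of a type, the group levels can be estimated from the mean and the fold change of each gene. All 61 clustered genes together came to an estimated 138951 normalised counts per sample with siPCIF1 and 176127 with siScramble from the authors' deposited table, or 78.9%. The estimates were 75.7% for H1, 76.0% for H2A, 78.1% for H2B, 77.5% for H3 and 88.9% for H4, and 82.7% for the 11 variants. These sums carry no error of their own, because the deposited SEs do not give the covariance of genes. On the log2 scale the sum of the clustered genes was at -0.34. The most counted RNAs of any kind, MT-RNR2, RN7SL2, MT-RNR1 and SNORD3A, were at -0.35, -0.66, -0.51 and -0.61 per the authors' deposited table, all called lower. A decrease of that size is thus not particular to the histone genes.

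The clustered genes lie in 2 blocks on chromosome 6, at 26.02 to 26.29 Mb with 27 genes and at 27.13 to 27.89 Mb with 20, and in smaller sets on chromosomes 1 and 12. In the first block 8 of 27 fell and 1 rose, and in the second 6 of 20 fell and 1 rose, per the authors' deposited table. These shares lower, 29.6% and 30%, lie above the 17.7% of all genes and under the 31.8% of genes with a mean of at least 1000, so nothing particular to a block is read from them. Of the 11 HIST2 genes on chromosome 1, 3 fell (27.3%) and 0 rose, and HIST4H4 on chromosome 12 was at -0.27 (SE 0.15) without passing per the authors' deposited table. Both measured coding genes of the HIST3 site on chromosome 1 (228456979 to 228460470), HIST3H2A and HIST3H2BB, fell. HIST3H2BA, not protein-coding and so outside the rule and named after its values were seen, was at -0.85 (SE 0.19; DESeq2 adjusted p = 0.000104) per the authors' deposited table.

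In 9 pairs of members the starts of the annotated gene spans face away from each other within 1000 bases. The span of HIST1H3J, paired with HIST1H2BO, is longer than its main model and overlaps another gene. The span of HIST1H2BN overlaps HIST1H2AK, so these genes were not counted as a pair, though their promoters hold the same CCAAT sites. They were at -0.18 and 0.11 per the authors' deposited table, and neither was called. Of the 9 pairs, both genes fell in 3, 1 fell and the other was not called in 5, and 1 pair held a gene that rose. Taken singly, 17.7% of the genes in the table were called lower and 16.3% higher. Where the mean count reached 1000, these shares were 31.8% and 14.5%. How often pairs of other genes hold a decrease was not tested, so nothing particular to the pairs is read from these counts. HIST1H2BC and HIST1H2AC were both at -0.58 per the authors' deposited table. HIST1H2BK at -0.58 faces HIST1H2AH at 0.18, and HIST1H2BM at 0.49 faces HIST1H2AJ at -0.08, per the authors' deposited table. HIST1H2BK and HIST1H2AJ have few 50-base words of their own, 25.9% and 16.3%, so both values are uncertain. The difference within a pair was not tested, and a gene that passed beside one that did not does not show that the 2 differed. The median absolute difference within a pair was 0.35, and Pearson's r over the 9 pairs was 0.25, given as a description.

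Promoter motifs known from histone genes were looked up in RefSeq promoters (GRCh38.p14, 250 bases before to 50 after the start, both strands), matched for 61 of the 72 members. TATAAA stood in 34 and CCAAT in 43 of 52 clustered genes, and in 3819 and 10846 of 27305 genes of any kind. ATTTGCAT, the octamer bound by POU2F1, stood in 13 of 17 H2B and 8 of 11 H2A genes but in 0 of 8 H3 and 0 of 11 H4 genes, against 2.19% of all genes. A site between 2 genes that face away from each other was counted for both, so there are fewer sites than genes. The octamer is shown in capitals with its flanks for a gene that rose and one that fell, to show that both have it. The site of HIST1H2BM is also that of HIST1H2AJ, at -0.08 and not called, and the site of HIST1H2BC is also that of HIST1H2AC.
HIST1H2BM (chr6:27814966-27814989, + strand): tactcctaATTTGCATaataacat
HIST1H2BC (chr6:26124034-26124057, - strand): catacctcATTTGCATagctctgc
Of the 21 H2A and H2B genes with the octamer 10 fell and 1 rose, and of the 7 without it 4 fell and 0 rose per the authors' deposited table. These are 47.6% and 57.1% lower, against 17.7% lower and 16.3% higher over all genes.

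Variant genes split into 3 that fell and 8 that did not pass, with 0 called higher and a median of -0.25 per the authors' deposited table, against -0.27 in the clustered genes. The 3 are 27.3% of the 11, with 17.7% called lower over all genes and 31.8% over genes with a mean of at least 1000, so the count is near the background. H2AFJ (chromosome 12, 14774383 to 14778002), which encodes the variant H2A.J, had the largest decrease among them, at -0.81 (SE 0.15; DESeq2 adjusted p = 1.51e-06) or 56.9% of the siScramble level per the authors' deposited table. H2AFZ (chromosome 4, 99948086 to 99950388), for H2A.Z at promoters, was at -0.68 (SE 0.15; DESeq2 adjusted p = 5.78e-05) per the authors' deposited table. Its sister gene H2AFV, which encodes the second H2A.Z protein, was at -0.11 (SE 0.13; DESeq2 adjusted p = 0.527) per the authors' deposited table. H1FX, the linker histone H1X, was at -0.60 (SE 0.16; DESeq2 adjusted p = 0.00178) per the authors' deposited table. A gene on the opposite strand, H1FX-AS1, overlaps it, and whether reads were counted by strand is not stated here.

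The variants that did not pass include both H3.3 genes and both macroH2A genes. H3F3A was at -0.09 (SE 0.17) and H3F3B at -0.20 (SE 0.15), with DESeq2 adjusted p of 0.714 and 0.302, per the authors' deposited table. For macroH2A, a large H2A variant of silent chromatin, H2AFY was at -0.01 (SE 0.12; DESeq2 adjusted p = 0.954) and H2AFY2 at 0.03 (SE 0.13; DESeq2 adjusted p = 0.882) per the authors' deposited table. H2AFX, whose product is phosphorylated at DNA breaks, was at -0.31 (SE 0.14; DESeq2 adjusted p = 0.0693) per the authors' deposited table. H1F0, a linker histone of cells that have stopped dividing, was at -0.25 (SE 0.19; DESeq2 adjusted p = 0.333) per the authors' deposited table. H2BFS had a mean of 14.2 and was at -0.31 (SE 0.29; DESeq2 adjusted p = 0.427) per the authors' deposited table, and none of its 50-base words was its own. A p above the threshold does not show that these genes were equal between the groups: the 95% interval of H3F3B runs from 70.9 to 106% of the siScramble level.

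Copies that cannot be told apart were a small part of the members. In 12 of the 61 clustered genes under 50% of the 50-base words were unique. The duplicated HIST2 genes HIST2H2AA3 and HIST2H2AA4, HIST2H3A and HIST2H3C, and HIST2H4A and HIST2H4B had 0 to 4.89% unique words and means of 9.79 to 27.1 per the authors' deposited table, far under the median of 1801 of the clustered genes, and none of the 6 passed. The rest of the 12 were HIST1H2BK, HIST1H2AI, HIST1H2AJ, HIST2H3D, HIST1H4J and HIST1H4K. These had 0 to 37.7% unique words and means of 228 to 4189 per the authors' deposited table. HIST1H2BK and HIST1H2AI were called lower, and the values of all of them are uncertain. Among the 49 clustered genes with at least 50% unique words, 17 (34.7%) fell and 2 rose per the authors' deposited table. In the table as a whole 17.7% of genes were lower and 16.3% higher. Where the mean count reached 1000, these shares were 31.8% and 14.5%, so the 34.7% is near the share lower of strongly counted genes. Another annotated gene overlaps 12 of the 61, of which HIST2H2AB, HIST1H2BD and HIST1H2AL fell (25%), a share between the 17.7% and the 31.8%.

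The decrease of the clustered genes taken as a class was not kept once a trend shared by all genes was removed. Across the table, Spearman's rho of the change was -0.42 with GC content, 0.24 with length and -0.11 with mean level, over genes that share the same 6 libraries, per the authors' deposited table; over the 61 clustered genes it was -0.03, -0.12 and -0.34. After a fit of GC content, length and mean level over all genes was subtracted, 3 clustered genes passed as lower (HIST3H2BB, HIST1H2AC and HIST1H2BD) and 10 as higher, and the median turned to 0.03. The same step called 12.7% of 13877 genes lower and 12.3% higher. Of the 10 called higher, 9 belong to the 26 genes whose models end at the stop codon. Those models have a median length of 393 bases and a GC content of 60.3%, with a fitted value of -0.45, while the 25 models with over 150 bases past the stop have 1487 bases, 47.5% and -0.16. Among the 35 clustered genes with models past the stop, 3 were then lower and 1 higher, with a median of -0.10. In the 26 that end at the stop codon that median was 0.30. Length and GC content of the truncated models are not those of the whole mRNA, and their part in the result was not tested. Of the variants, H2AFJ and H2AFZ still passed as lower, at -0.44 and -0.51, and H1FX did not, at -0.13. HIST1H2BM and HIST1H3E passed as higher with and without this step.

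**Figure D3:**
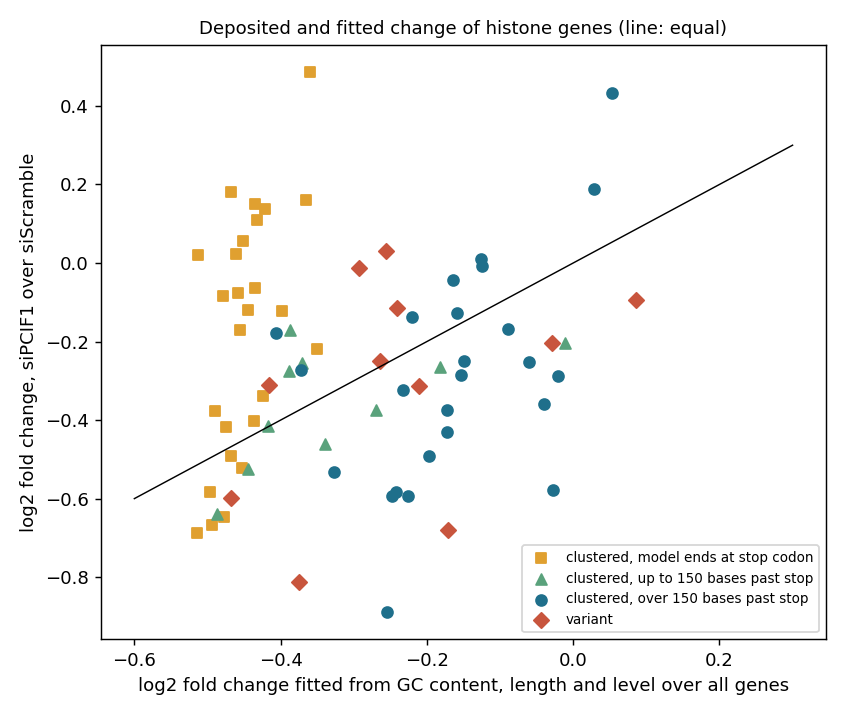
Log2 fold change fitted from GC content, length and level over all genes (x axis) against the log2 fold change that the authors' deposited table gives (y axis) for the 72 histone genes. Points on the line have the change fitted for their GC content, length and level; clustered genes whose models end at the stop codon (squares) have fitted values between -0.51 and -0.35, and HIST3H2BB and H2AFJ lie well under the line.

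Of 17 listed factors of 3′ end processing and turnover, 6 (35.3%) rose and 2 (11.8%) fell per the authors' deposited table, with a median of 0.23, against 16.3% higher and 17.7% lower over all genes. SLBP, which binds the stem-loop, rose by 0.55 (SE 0.15; DESeq2 adjusted p = 0.00116) per the authors' deposited table. CASP8AP2, also called FLASH, which helps U7 snRNP recruit the cutting complex, rose by 0.90 (SE 0.20), and CPSF3, the nuclease of that complex, by 0.56 (SE 0.15) per the authors' deposited table. ERI1, an exonuclease that trims the stem-loop end, rose by 0.83 (SE 0.17) per the authors' deposited table. LSM10 and LSM11, core proteins of the U7 snRNP, were at -0.33 (SE 0.24) and 0.14 (SE 0.16) per the authors' deposited table and missed the threshold. MIF4GD and CTIF, which act in the translation of histone mRNA, fell by 0.74 (SE 0.16) and 0.54 (SE 0.15) per the authors' deposited table. CPSF2 and XRN1, at 0.59 and 0.64 per the authors' deposited table, rose too, and neither passed after subtraction of the trend fitted on GC content, length and level. After that step 5 of the 17 were higher and 2 lower, against 12.3% higher and 12.7% lower over all genes.

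Of 13 listed regulators of histone gene transcription, CASP8AP2 again among them, 6 (46.2%) rose and 1 (7.69%) fell per the authors' deposited table, against the same 16.3% and 17.7% over all genes. The cyclin E genes CCNE2 and CCNE1, whose kinase activates NPAT at the start of S phase, rose by 1.77 (SE 0.23) and 1.47 (SE 0.24) per the authors' deposited table. NPAT, the coactivator of clustered histone genes, rose by 0.58 (SE 0.19; DESeq2 adjusted p = 0.0102) per the authors' deposited table, but was at 0.21 with an adjusted p of 0.466 once that trend was removed. NFYA, a subunit of the CCAAT-binding factor, rose by 0.61 (SE 0.18) per the authors' deposited table. HINFP, an activator of H4 genes, fell by 0.58 (SE 0.15; DESeq2 adjusted p = 0.000781) per the authors' deposited table. With the trend removed 6 of the 13 were higher and 1 lower, against 12.3% higher and 12.7% lower over all genes.

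Histone chaperones gave 8 increases (26.7%) and 1 decrease (3.33%) among 30 measured genes per the authors' deposited table, against 16.3% and 17.7% over all genes. With the trend removed 4 of the 30 were higher and 1 lower, and the count of higher genes was then near the 12.3% called higher over all genes. SUPT16H, a FACT subunit, and NASP, which stores H3 and H4, rose by 1.04 (SE 0.16) and 1.00 (SE 0.18) per the authors' deposited table. MMS22L, a partner of TONSL at replication forks, rose by 0.90 (SE 0.18), and CHAF1A, the large subunit of the replication-coupled assembly factor, by 0.52 (SE 0.16) per the authors' deposited table. HJURP, which places the centromeric H3 variant CENPA, fell by 0.67 (SE 0.15), and CENPA itself, a histone outside the naming rule, fell by 1.55 (SE 0.20) per the authors' deposited table.

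Cell cycle genes and RNAs without a poly(A) tail moved beside the histone genes. Of 39 DNA replication genes 12 (30.8%) rose and 3 (7.69%) fell, with MCM6 at 1.17 and PCNA at 0.84, per the authors' deposited table, against 16.3% and 17.7% over all genes. Of 25 mitosis genes 18 (72.0%) fell and 0 rose, with CDC20 at -2.33, per the authors' deposited table. With the trend on GC content, length and level removed, 14 of the 39 replication genes were higher and 2 lower. Of the 25 mitosis genes 22 were then lower and 0 higher. Over all genes that step called 12.3% higher and 12.7% lower. A lower histone level in these bulk samples can come, among other sources, from fewer cells in S phase or from less histone mRNA per cell. These 2 cannot be told apart. Of 116 small nucleolar, Cajal body and small nuclear RNA genes, 45 (38.8%) fell and 2 (1.72%) rose, with a median of -0.42, per the authors' deposited table; RN7SL2 was at -0.66 (SE 0.16). The other 175 protein-coding genes with 1 exon had 37 decreases (21.1%) and 16 increases (9.14%) and a median of -0.03 per the authors' deposited table, so their share lower was near the 17.7% of all genes. The part of the cell cycle, of untailed RNA and of the number of exons in the histone result was not tested.

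**Figure D4:**
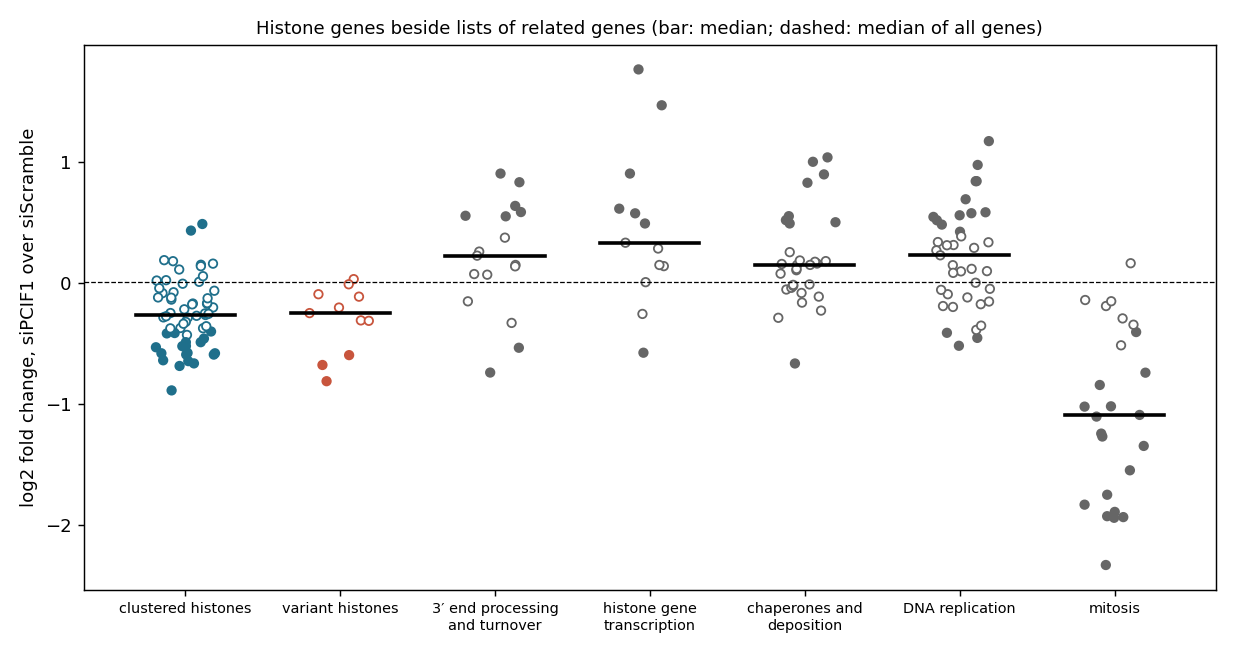
Log2 fold change, siPCIF1 over siScramble, of clustered and variant histone genes and of 5 lists of related genes. Each point is a gene, filled where it passed an adjusted p of 0.05; bars are medians (-0.27, -0.25, 0.23, 0.33, 0.15, 0.23 and -1.09 from left to right) and the dashed line is the median of all genes.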

How the data were processed

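RNA from 6 samples of BE(2)-C cells was compared as 3 siPCIF1 against 3 siScramble samples, all in ATRA. Per the submitters' processing notes, bcl2fastq 2.20, cutadapt 3.7, STAR 2.7.10a, HTSeq, deepTools and DESeq2 were used with hg38; no settings and no annotation are named there. Per the file headers, the authors deposited a DESeq2 comparison with 6 columns: the mean normalised count, a signal at or above 0; the log2 fold change and its SE, log2 values by the authors; the Wald statistic, a score deposited by the authors; and the p-value and adjusted p-value deposited by the authors. Adjusted p-values follow Benjamini and Hochberg over the 13885 genes. Depth per library is unknown; the SE, 0.12 to 0.30, gives the precision.

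Symbols, models and sequences came from GENCODE 29 (GRCh38), to which 13877 of 13885 identifiers matched once versions were dropped; all 72 members also had the same version. The members, lists and alternatives were chosen with earlier results of these data known. A gene counted as changed where the authors' deposited table gives an adjusted p under 0.05; classes and lists were described by counts and medians, with no test. The trend was fitted over all genes by natural cubic splines with 5 knots for GC content, log length and log mean. The steps were tested on simulated data. Described with SE and adjusted p were every variant, the 10 clustered genes with the smallest adjusted p, those that rose and the 3 most counted that did not pass; genes outside this rule were named after their values were seen. Intervals are normal 95% intervals from the fold change and its SE. Scripts ran in Python 3.11.15 (pandas 2.3.3, numpy 2.4.6, matplotlib 3.10.9, scipy 1.17.1).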

Additional observations from a re-analysis of the deposited data

How the results depend on the processing

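The decrease of the clustered genes, 19 lower and 2 higher, gave the same counts with fold changes centred on the median, with an estimate without shrinkage, where genes with means under 100 were left out and in the 54 clustered genes with means of 50 or more. In the main comparison 17.7% of all genes were lower and 16.3% higher. With an adjusted p of 0.01 it was 17 lower and 1 higher, against 1685 lower and 1489 higher among all 13885 genes. With the trend with expression alone removed 7 of the 61 were lower and 2 higher, against 2275 lower and 2290 higher of 13877 genes. With GC content and length too 3 were lower and 10 higher, against 1764 and 1700 of 13877 genes, and the median reversed to 0.0345. By gene model that median was 0.30 in the 26 that end at the stop codon and -0.10 in the 35 past it. The cause was not tested. Against an absolute change of 0.3, 2 clustered genes were lower, HIST3H2BB and HIST1H3B, and 0 higher. Over all 13885 genes 839 were lower and 687 higher against that change. With the Wald statistic scaled to its robust SD of 2.44, a width to which true changes add, 0 clustered genes were lower or higher. By that rule 0 variants were lower, and of all 13885 genes 114 were lower and 21 higher. Fewer members lie by construction in the 28 clustered genes with the stem-loop (8 lower, 1 higher), the 33 with none found (11 lower, 1 higher), and, chosen after seeing the data, the 35 with models past the stop codon (11 lower, 1 higher) and the 26 that end there (8 lower, 1 higher). Of the variants 3 were lower except for 4 at an adjusted p of 0.1, 2 with all 3 trends removed, 2 against a change of 0.3, and the robust SD. No paired analysis was possible because the table gives no values per sample, and for the same reason no replicate could be left out.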
